A study of Mus musculus with 2 samples.

Results

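The transcriptional repressors Hes1, Hes5, Hes6, Hey1, Hey2 and Heyl, with the Notch feedback gene Nrarp, were followed across the cell types of the postnatal mouse cortex. The 7 genes were taken by symbol from the gene table of the libraries, which holds 32285 genes, and each had 1 row. Droplet-based sequencing of single-cell RNA was applied to cortex of postnatal day 5, with 1 library from wild-type mice (WT) and 1 from mice with a mutation of Katnal2 (Mut), a gene related to the microtubule-severing ATPase katanin. Both groups carry the same labels for tissue, age and handling, with no drug or other allele named, while no source used here gives the kind of Katnal2 mutation, the strain or the gate of the flow sort. The labels speak both of frozen storage and of enzymatic dissociation with cell sorting. The series' design text mentions 3 replicates per sample, but the barcodes of each library carry 1 suffix, so that each genotype counts as 1 sample.

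Notch receptors bind ligands on neighbouring cells, are cut, and release an intracellular domain that joins the DNA-binding protein RBPJ and switches on Hes and Hey genes. The Hes and Hey proteins are basic helix-loop-helix repressors that silence proneural genes and so hold neural progenitors and glia back from neuronal fate. In vessels the Hey genes act in arterial endothelium and in mural cells, Hes6 is known as a relative that opposes Hes1, and Nrarp binds the Notch complex and damps it.

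All levels are counts of unique molecular identifiers (UMIs) summed over the barcodes of a class and divided by all UMIs of that class, scaled to counts per 1000000 UMIs (CPM). Levels have exact Poisson intervals of 95%, and ratios have exact binomial ones conditional on the summed UMIs. Both cover counting error only, not the differences between barcodes of a class, animals, dissections or library preparations. They treat UMIs as independent, so that they are too narrow where the UMIs of a gene gather in few barcodes. No test was possible with 1 library per genotype, so that genotype and library cannot be told apart in any Mut to WT ratio.

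After filtering, 11024 WT and 10102 Mut barcodes were used, with a median of 6446 and 7625.5 UMIs. Barcodes were classed by markers that hold none of the 7 genes and no gene of the Notch lists, and 12 classes had at least 50 barcodes in each library. These ran from 3643 WT and 3570 Mut astrocyte-like barcodes to 73 and 67 oligodendrocyte-like ones, and 1313 and 1038 barcodes stayed unassigned. Excitatory neurons, the main neurons of the cortex named in the labels, were nearly absent, with 21 and 24 excitatory neuron-like barcodes. Barcodes with Xist and no Y-linked UMI made up 47.3% of the sexed barcodes in WT and 65.6% in Mut, and 39 barcode sequences occurred in both libraries. Katnal2 itself had 327 UMIs in WT and 426 in Mut (3.87 and 4.82 CPM), which does not check the labels, since the mutated part of the gene is not given.

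The genes were placed on GRCm38, the build of the files, and all 7 identifiers were found in its GENCODE annotation. Hes1 (ENSMUSG00000022528) lies at chr16:30064384-30067796 on the plus strand and Hes5 (ENSMUSG00000048001) at chr4:154960923-154962371 on the plus strand. Hes6 (ENSMUSG00000067071) lies at chr1:91411483-91414038 on the minus strand and Nrarp (ENSMUSG00000078202) at chr2:25180758-25183339 on the plus strand as a single exon. Hey1 (ENSMUSG00000040289) lies at chr3:8663359-8667256 on the minus strand, Hey2 (ENSMUSG00000019789) at chr10:30832359-30842801 on the minus strand and Heyl (ENSMUSG00000032744) at chr4:123233556-123249875 on the plus strand. Antisense transcripts overlap Hes5 (Gm20421) and Nrarp (Gm38287). The Hes5 partner had 10 UMIs in WT and 6 in Mut beside 87977 and 87847 for Hes5, whereas the Nrarp partner had 1089 and 1198 beside 13813 and 14731 for Nrarp. No source used here gives the strand setting of the counting, so that Nrarp reads may be shared with its antisense partner.

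Promoter sequences were at hand for 4 of the 7 genes, from RefSeq on GRCm38.p6. The sequences shown hold the 250 bases before the start site. They were searched for the RBPJ core TGGGAA, the letter pattern through which Notch is known to reach its target genes. Each is written 5′ to 3′ on the strand of the gene, with the RBPJ core (TGGGAA or its reverse complement TTCCCA) in capitals.
Hes5: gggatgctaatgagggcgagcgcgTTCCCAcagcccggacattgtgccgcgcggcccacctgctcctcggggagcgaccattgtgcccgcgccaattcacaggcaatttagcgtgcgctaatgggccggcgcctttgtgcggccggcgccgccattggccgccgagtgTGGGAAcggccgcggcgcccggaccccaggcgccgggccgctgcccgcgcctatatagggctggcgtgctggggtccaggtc
Hey2: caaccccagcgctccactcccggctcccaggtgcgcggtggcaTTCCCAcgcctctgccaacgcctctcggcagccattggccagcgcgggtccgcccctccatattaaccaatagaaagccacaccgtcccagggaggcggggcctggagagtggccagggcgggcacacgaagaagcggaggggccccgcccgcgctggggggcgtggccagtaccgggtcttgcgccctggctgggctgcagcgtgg
Nrarp: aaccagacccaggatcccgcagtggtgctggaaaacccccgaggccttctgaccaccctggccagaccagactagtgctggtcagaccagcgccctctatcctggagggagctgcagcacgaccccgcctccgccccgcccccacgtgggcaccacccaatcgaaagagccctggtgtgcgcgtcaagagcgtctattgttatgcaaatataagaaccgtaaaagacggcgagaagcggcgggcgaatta
Hes6: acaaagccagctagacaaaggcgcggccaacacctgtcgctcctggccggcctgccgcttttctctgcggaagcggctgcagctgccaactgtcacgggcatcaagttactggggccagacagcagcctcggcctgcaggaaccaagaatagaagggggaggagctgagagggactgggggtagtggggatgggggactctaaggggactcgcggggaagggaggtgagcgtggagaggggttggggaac
These windows are chr4:154960673-154960922 (Hes5), chr10:30842784-30843033 (Hey2), chr2:25180508-25180757 (Nrarp) and chr1:91414039-91414288 (Hes6, the upstream of its 2 listed starts). Searched on both strands, the Hes5 window held 2 RBPJ cores, which begin 226 and 82 bases before the start site, and the Hey2 window held 1, which begins 207 bases before it. Neither the Nrarp window nor the Hes6 window held one. Of 32851 mouse promoter windows of the same length, 21.6% held at least 1 such core and 2.77% held 2 or more. The E-box CACGTG, a sequence that Hey proteins are known to bind, occurred once in the Nrarp window and in 6.02% of all windows. A match is a description of letters in 250 bases, not a measured site, and cores can lie outside these windows.

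Hes1, the best known effector of Notch in progenitors, was highest in endothelial cell-like barcodes in both libraries. It reached 342 CPM in WT (interval 329 to 357, 2331 UMIs) and 441 in Mut (425 to 456, 3166 UMIs) there, and 299.9 and 369.7 in mural cell-like barcodes. Radial glia-like barcodes held 265 and 268 CPM, astrocyte-like ones 205 and 238, and fibroblast-like ones 169 and 315. Fibroblast-like barcodes thus ranked above radial glia-like ones in Mut and below them in WT. Vessel classes thus led the order in both libraries, and the endothelial level exceeded that of the next class beyond counting error in both libraries. Oligodendrocyte precursor-like barcodes held 71.4 and 71.5 CPM, and inhibitory neuron-like ones 8.31 and 10.9, below the 148 and 185 CPM of RNA free in the suspension, measured in barcodes of 10 to 100 UMIs. WT radial glia-like and mural cell-like levels of Hes1 did not differ beyond counting error, nor did those of astrocyte-like barcodes and mixed astroglia, a class whose astrocyte and radial glia markers were about equally frequent.

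Hes5, the effector that astroglia keep into postnatal life, followed another order. Astrocyte-like barcodes held 1882 CPM in WT (1867 to 1897, 61328 UMIs) and 1691 in Mut (1678 to 1705, 61667 UMIs), mixed astroglia 1785 and 1640, and radial glia-like barcodes 1096 and 1073. Oligodendrocyte precursor-like barcodes held 406 and 482 CPM and committed oligodendrocyte precursor-like ones 354 and 415. Each of these 5 classes differed from the next beyond counting error in both libraries, and the last of them lay 4.51-fold above the next class in WT and 2.44-fold in Mut. All other classes lay between 45.1 and 78.3 CPM in WT and between 47.6 and 170 in Mut, against 908 and 1001 CPM of free RNA.

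With every barcode thinned to 1000 UMIs, 74.5% of WT and 70.1% of Mut astrocyte-like barcodes had a Hes5 UMI, against 2.85% and 5.10% of microglia-like barcodes, a type that is not a source of Hes5. Without thinning these shares were 96.8% and 96.8% against 12.7% and 17.6%, at median depths of 8605 and 9841.5 UMIs in astrocyte-like and 5901 and 6814 in microglia-like barcodes. At 1000 UMIs the variance over mean of Hes5 in astrocyte-like barcodes was 2.12 in WT and 1.95 in Mut, where pure counting gives 1. The same value was 1.31 and 1.19 for Hes1 and 1.07 and 1.05 for Nrarp, and between 0.989 and 1.04 for the other 4 genes. Hes5 also had the highest mean, 1.99 and 1.76 UMIs per barcode against 0.229 and 0.252 for Hes1. Variance over mean can rise with the mean, so that these values do not rank the genes by how much they vary.

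Hes6, which opposes Hes1 and is known to favour neuronal differentiation, was highest in inhibitory neuron-like and radial glia-like barcodes. The former class held dividing barcodes too, 386 of 1560 in WT and 285 of 1074 in Mut. Inhibitory neuron-like barcodes held 151 CPM in WT (143 to 160) and 139 in Mut (130 to 149), and radial glia-like ones 133 and 141. These 2 classes exchanged the first rank between the libraries and did not differ beyond counting error in either. Oligodendrocyte precursor-like barcodes held 78.5 and 79.5 CPM and astrocyte-like ones 53.3 and 52.8, near the free RNA level of 66.9 and 54.8. The lowest levels, 10.0 and 17.4 CPM, were in mural cell-like barcodes. No Hes6 ratio between Mut and WT had an interval that left out 1 in any of the 12 classes.

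The Hey genes divided between glia and vessels. Hey1 was highest in astrocyte-like barcodes, at 76.9 CPM in WT (73.9 to 80.0) and 94.3 in Mut (91.2 to 97.5), followed by mixed astroglia at 74.9 and 83.9. Endothelial cell-like barcodes held 53.6 and 49.3 CPM and oligodendrocyte precursor-like ones 49.1 and 56.4, close to the free RNA level of 49.2 and 55.1. Hey2, known for its role in arteries and the heart, was highest in mural cell-like barcodes at 60.0 CPM in WT (46.9 to 75.5) and 71.2 in Mut (57.8 to 86.8). That was 1.92-fold above astrocyte-like barcodes, the next class, in each library (31.3 and 37.0 CPM), with 12.02 and 14.8 CPM in free RNA.

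Heyl, a marker of vascular smooth muscle and pericytes, had the widest gap of the 7 genes between its first and its next class. Mural cell-like barcodes held 233 CPM in WT (207 to 262, 280 UMIs) and 263 in Mut (237 to 292, 362 UMIs), 6.84-fold and 10.0-fold above the next class. Fibroblast-like barcodes held 34.1 and 23.3 CPM, and free RNA 3.797 and 9.68. Oligodendrocyte-like barcodes held 19.2 and 26.2 CPM from 16 and 22 UMIs, although oligodendrocyte precursor-like ones held 1.81 and 1.72. With thinning to 1000 UMIs, 19.3% and 24.1% of mural cell-like barcodes had a Heyl UMI, while 1 of 1560 WT and 0 of 1074 Mut inhibitory neuron-like barcodes did, and a count of 0 in the latter allows a share of up to 0.279%.

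Nrarp, the feedback inhibitor, stood above 100 CPM in the astroglial, endothelial cell-like, mural cell-like and both oligodendrocyte precursor-like classes, with a free RNA level of 142 and 159 CPM. It was highest in astrocyte-like barcodes at 247 CPM in WT (242 to 252) and 237 in Mut (232 to 242), with mural cell-like barcodes at 169 and 217 and endothelial cell-like ones at 158 and 164. Oligodendrocyte precursor-like barcodes held 134 and 147 CPM, committed ones 119 and 132, and oligodendrocyte-like ones 3.60 and 9.53 from 3 and 8 UMIs. Inhibitory neuron-like barcodes held 23.9 and 33.5. The astrocyte-like and mural cell-like levels of Nrarp did not differ beyond counting error in Mut. In the oligodendrocyte lineage all members but Heyl had their lowest level in the most mature class in both libraries, taken without regard to counting error. Hey2 was at 3.60 and 2.38 CPM there. Heyl had its highest level of that lineage in this class.

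**Figure D1:**
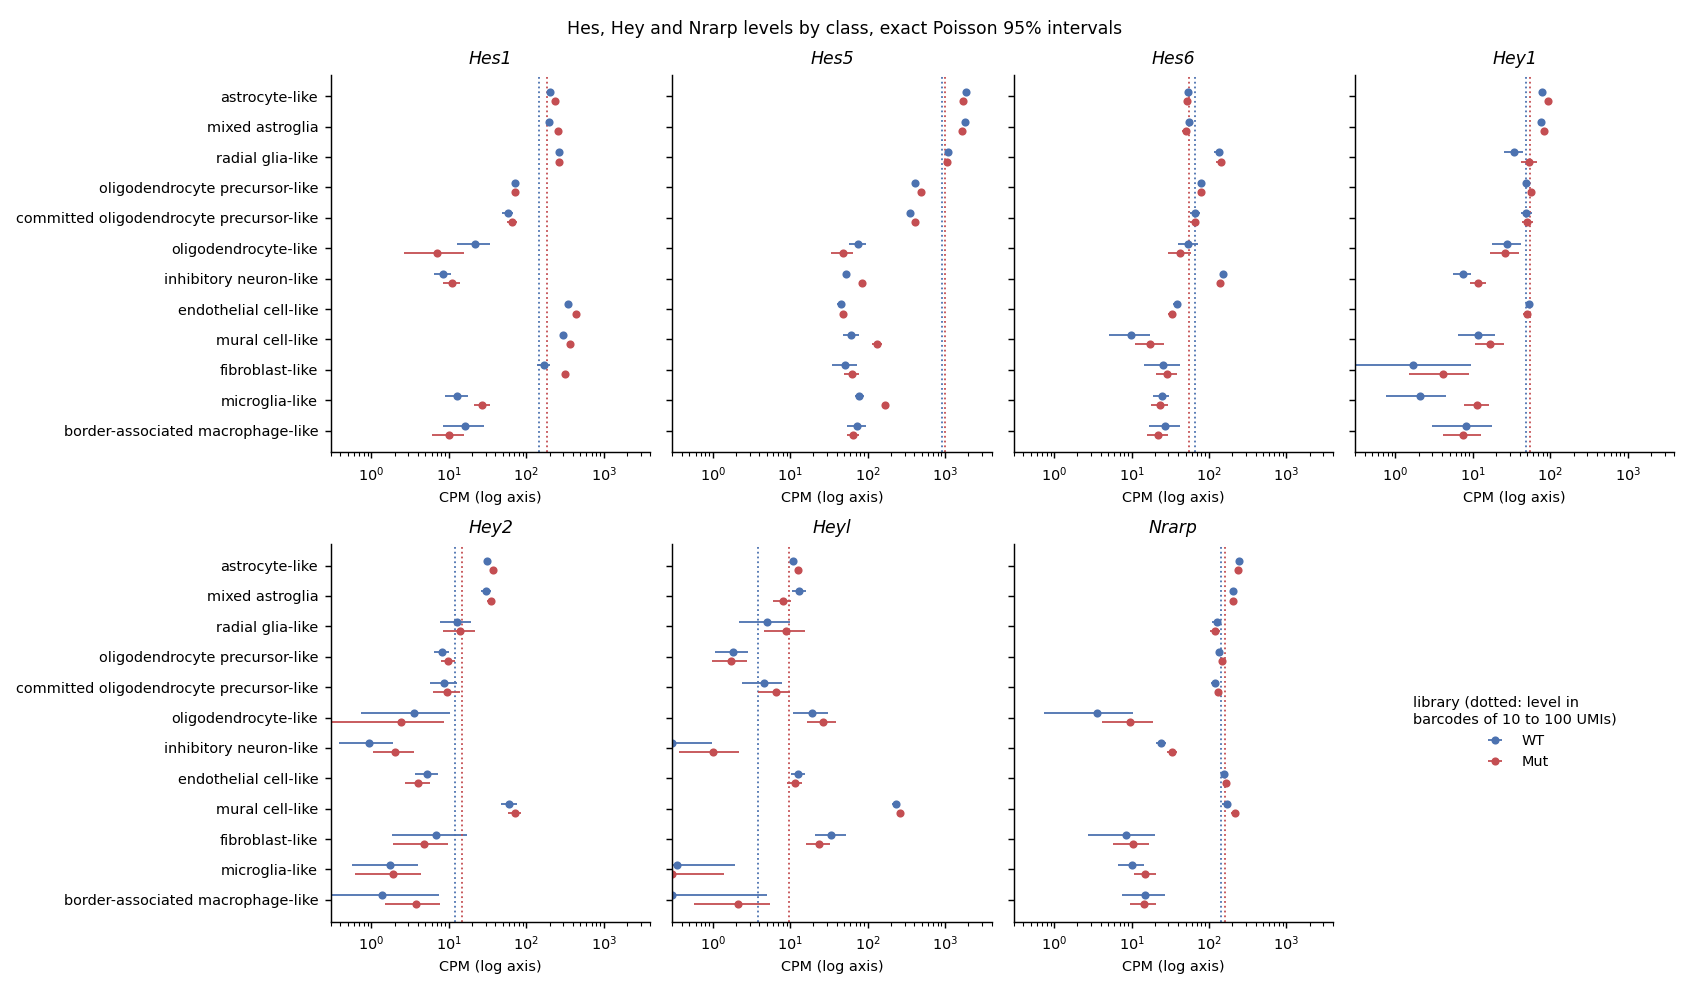
Level of each gene (CPM, log axis) in the 12 classes for WT (blue) and Mut (red), with exact Poisson 95% intervals; dotted lines give the level in barcodes of 10 to 100 UMIs, and levels under 0.3 CPM are drawn at the left edge. Hes5 exceeds 1000 CPM in the 3 astroglial classes of both libraries, whereas Heyl exceeds 200 CPM in mural cell-like barcodes and stays under 40 in all other classes.

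Genes with the most similar pattern over the 12 classes were ranked among 13510 genes by Pearson's r of log2(CPM + 5), as a description without a test, since all points come from the same 2 libraries. For Nrarp the first of them was the receptor Notch1, with r of 0.93 in WT and 0.98 in Mut. For Hes5 it was Fabp7, a fatty acid binding protein of radial glia and astrocytes (0.983 and 0.985), followed by Ppargc1a and Celrr. For Hey2 the second was the mural receptor Notch3 (0.95 and 0.95) after Ugp2 (0.96 and 0.95). The first was Rhoc for Hes1 (0.92 and 0.94), Tox3 for Hes6 (0.94 and 0.95), Limch1 for Hey1 (0.95 and 0.97) and Tmem134 for Heyl (0.96 and 0.92). Between members, Hey1 and Nrarp had 0.75 and 0.80, Hes1 and Hey2 0.76 and 0.64, and Hes6 and Heyl the lowest values (-0.60 and -0.43).

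Dividing barcodes, which had at least 5 of 10 cell cycle markers, were compared with non-dividing ones of the same class in the 9 classes with at least 30 dividing barcodes in each library. Hes5 was lower in dividing barcodes, with intervals that left out 1 in both libraries, in 5 of the 9 classes: the 3 astroglial ones, inhibitory neuron-like and microglia-like barcodes. The share of all genes lower in dividing barcodes was not computed, so that this count does not set Hes5 apart from other genes. In the microglia-like class, 168 of 227 WT and 393 of 452 Mut Hes5 UMIs sat in 6 and 14 barcodes, so that its ratio rests on few of them. In the inhibitory neuron-like class, 199 of 392 WT and 298 of 498 Mut Hes5 UMIs sat in 14 and 17 barcodes. In radial glia-like barcodes Hes5 stood at 699 against 1327 CPM in WT and at 741 against 1255 in Mut. Hes6 was higher in dividing radial glia-like barcodes, at 247 against 66.8 CPM in WT (ratio 3.70, 2.75 to 5.02) and 254 against 79.6 in Mut (3.19, 2.36 to 4.35), and lower in dividing astrocyte-like (0.783 and 0.825) and oligodendrocyte precursor-like barcodes (0.71 and 0.809). The direction for Hes6 therefore differed between glial classes in the same way in both libraries.

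Nrarp was higher in dividing inhibitory neuron-like barcodes, at 39.2 against 13.3 CPM in WT (2.94, 2.13 to 4.09) and 49.7 against 21.5 in Mut (2.31, 1.72 to 3.12), and in dividing committed precursor-like ones (1.54 and 1.28). In endothelial cell-like barcodes Hey1 was lower when dividing, at 20.2 against 74.6 CPM in WT (0.271, 0.198 to 0.363) and 24.6 against 65.1 in Mut (0.378, 0.286 to 0.493), as were Hes1 (0.685 and 0.777) and Nrarp (0.812 and 0.818). In mural cell-like barcodes Hey2 was lower when dividing (0.399 and 0.507). Dividing barcodes were deeper in all 9 classes, in endothelial cell-like ones with medians of 31479.5 and 30845 UMIs against 10922 and 10080.5, and the part of depth was not tested. Among the highest Scrublet doublet scores were 41 of the 70 dividing endothelial cell-like barcodes in WT and 37 of the 80 in Mut, and the part of doublets in the endothelial ratios was not tested.

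**Figure D2:**
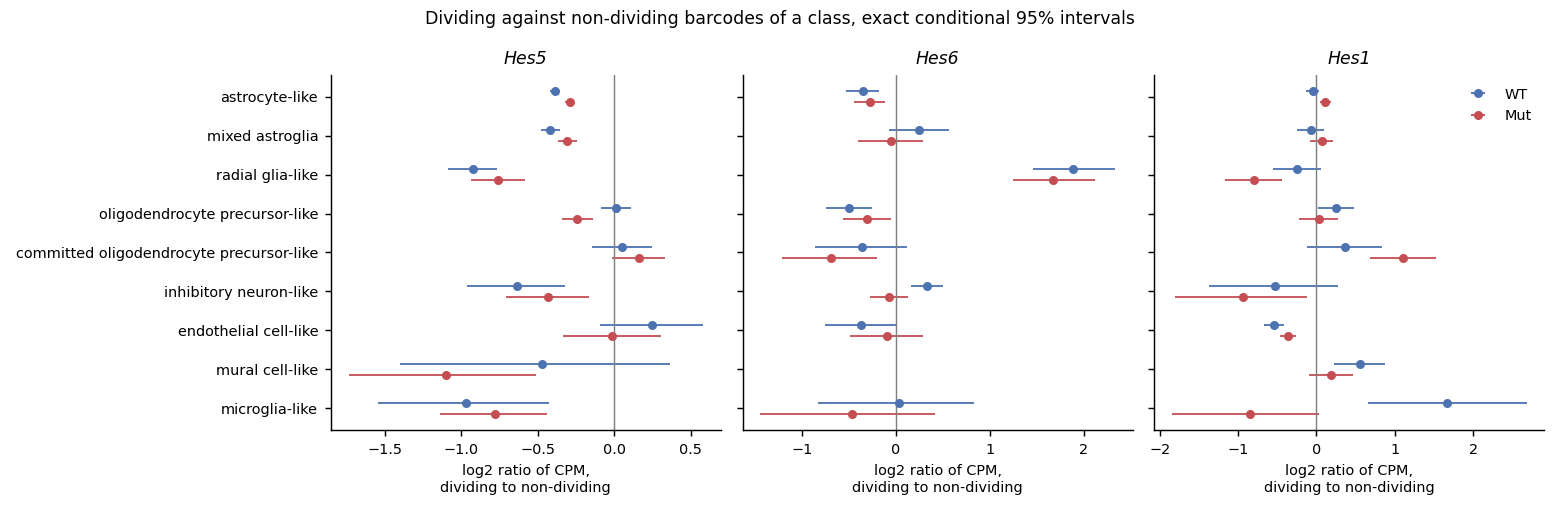
Log2 ratio of CPM in dividing to non-dividing barcodes for Hes5, Hes6 and Hes1 in 9 classes, WT blue and Mut red, with exact conditional 95% intervals; pairs under 30 UMIs are not drawn. Hes6 stands far to the right in radial glia-like barcodes of both libraries (ratios 3.70 and 3.19), where Hes5 stands to the left (0.527 and 0.591).

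Endothelial cell-like barcodes were further split by 6 arterial markers, a choice made after the data had been seen. The 30 WT and 32 Mut barcodes with at least 3 of them held Hey1 at 135 CPM (108 to 166) and 94.8 (74.9 to 118), against 42.3 and 32.2 in the 167 and 201 barcodes with none, ratios of 3.19 and 2.95. Hes1 (0.885 and 0.924) and Nrarp (0.926 and 0.971) had intervals that included 1. Hey1 was thus the 1 member with an interval above 1 in the arterial barcodes of both libraries. The share of all genes with such intervals was not computed, so that this does not set Hey1 apart from other genes. Hes5 was lower in the arterial barcodes (6.20 and 15.8 against 92.0 and 63.2 CPM). Of all endothelial cell-like Hes5 UMIs, 236 of 307 in WT and 256 of 348 in Mut sat in 11 and 15 barcodes. The Hes5 difference therefore rests on few barcodes, and all its levels lay below the 908 and 1001 CPM of free RNA. Hey2 had 11 and 6 UMIs in the arterial barcodes against 4 and 5, and its interval left out 1 in WT alone. The same held for Heyl, with 14 against 7 UMIs in WT (7.10, 2.68 to 20.8) and 13 against 23 in Mut (1.73, 0.805 to 3.56). The arterial barcodes were deeper, with medians of 20579.5 and 20872.5 against 9918 and 8833 UMIs, and the part of depth was not tested.

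Between the libraries most member levels lay close. Of the 84 pairs of a member and a class, 70 had at least 30 UMIs over both libraries. Over 1.5-fold higher in Mut on the log2(CPM + 5) scale were 6 of these 70 (8.57%), against 2.49% of all gene and class pairs, and over 1.5-fold lower was 1 (1.43%), against 1.19%. The median log2 ratio was 0.14 over the 70 pairs and 0.05 over all genes. In the astrocyte-like, mixed astroglia, radial glia-like, both precursor-like, endothelial cell-like and border-associated macrophage-like classes no member passed 1.5-fold in either direction on that scale. The nearest was Hey1 in radial glia-like barcodes, at 34.1 and 52.9 CPM (log2 of 0.57). The shares of all genes higher and lower by that fold were 0.177% and 0.128% in astrocyte-like barcodes, 0.219% and 0.177% in mixed astroglia and 3.42% and 1.96% in radial glia-like ones. They were 0.179% and 0.202% in oligodendrocyte precursor-like, 1.13% and 0.654% in committed precursor-like, 0.528% and 0.37% in endothelial cell-like and 5.46% and 4.27% in border-associated macrophage-like barcodes.

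Ratios in the astroglial classes were small and differed between members. In astrocyte-like barcodes Hes1 was higher in Mut (ratio 1.16, 1.13 to 1.2), as were Hey1 (1.23, 1.16 to 1.29) and Hey2 (1.18, 1.09 to 1.29), and Hes5 (0.899, 0.889 to 0.909) and Nrarp (0.959, 0.930 to 0.989) were lower. Counts of this size make intervals narrow, and the libraries differ in the sex of their cells, which come from different animals. Taken by sex, Hes1 was at 181 CPM in WT and 247 in Mut female barcodes (1.37, 1.30 to 1.44) and at 220 and 224 in male ones (1.02, 0.962 to 1.07). Hes5 was at 1743 and 1772 CPM in female (1.02, 0.9997 to 1.03) and at 1994 and 1607 in male barcodes (0.806, 0.791 to 0.822). In this class the Hes1 interval thus left out 1 in female and the Hes5 interval in male barcodes, whereas Hey1 (1.21 and 1.18) and Hey2 (1.23 and 1.18) were higher in Mut in both, with intervals above 1. The difference between the sexes was not tested. In mixed astroglia the Hes1 ratio was 1.28 (1.19 to 1.37), with intervals above 1 in both female (1.49, 1.34 to 1.67) and male barcodes (1.24, 1.1 to 1.39). Heyl was lower in Mut there, at 13.1 and 8.02 CPM (0.61, 0.431 to 0.857), while in astrocyte-like barcodes it was at 11.0 and 12.7.

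Endothelial Hes1, the highest Hes1 level of all classes, was 1.29-fold higher in Mut (1.22 to 1.36), with 365 and 441 CPM in female barcodes (1.21, 1.11 to 1.32) and 334 and 457 in male ones (1.37, 1.26 to 1.49). Mural Hes1 was at a ratio of 1.23 (1.08 to 1.42), with 1.28 in female and 1.09 in male barcodes, the latter interval including 1. In free RNA the Hes1 ratio was 1.25 (1.13 to 1.38), and its part in these ratios was not tested. Endothelial Hes5 had a ratio of 1.07 over all barcodes, yet 1.69 in female (1.25 to 2.32) and 1.79 in male ones (1.31 to 2.44). Of its 307 WT UMIs, 159 sat in 15 barcodes with both Xist and a Y-linked UMI, against 91 of 348 in 25 such Mut barcodes. Over all 84 pairs, 27 ratios had an interval that left out 1, 21 above and 6 below. Of these 27, female and male values lay on the same side of 1 in 20, and both intervals left out 1 on that side in 9. The matching shares over all genes were not computed, so that these counts do not set the members apart from other genes.

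The 6 pairs over 1.5-fold higher in Mut lay outside the astroglia, and 3 of them were of Hes5. Inhibitory neuron-like Hes5 was 52.5 CPM in WT (47.5 to 58.0) and 83.7 in Mut (76.5 to 91.4), where 0.645% of genes were higher and 0.279% lower by that fold. Mural cell-like Hes5 was 60.8 and 134 CPM (ratio 2.20, 1.67 to 2.92), where 4.82% of genes were higher and 1.51% lower, and microglia-like Hes5 78.3 and 170 (2.17, 1.85 to 2.56), where 4.64% were higher and 0.735% lower. Microglia-like barcodes also had Hes1 at 12.8 and 26.7 CPM and Hey1 at 2.07 and 11.3, the latter from 6 and 30 UMIs. Fibroblast-like Hes1 was 169 and 315 CPM (1.87, 1.5 to 2.35), in a class where 10.7% of all genes were higher and 3.97% lower by that fold and WT had 58 barcodes. The 1 lower pair was oligodendrocyte-like Hes5, at 75.5 and 47.6 CPM from 63 and 40 UMIs, where 4.81% of genes were higher and 3.54% lower. Of these UMIs, 45 in WT sat in 3 barcodes and 15 in Mut in 4 barcodes with both Xist and a Y-linked UMI, and the levels were 42.6 and 37.1 CPM in female and 11.97 and 24.7 in male barcodes.

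Astrocyte markers were higher in Mut in every non-astroglial class except the border-associated macrophage-like one, and so also in the 3 classes where Hes5 was over 1.5-fold higher. The summed level of the 10 astrocyte markers was 130 CPM in WT and 430 in Mut microglia-like barcodes, 147 and 262 in mural cell-like ones and 154 and 271 in inhibitory neuron-like ones, with 7 to 10 of the 10 detected. In oligodendrocyte-like barcodes, where Hes5 was lower, they stood at 186 and 207 CPM. Of the 452 Hes5 UMIs of Mut microglia-like barcodes, 393 sat in 14 barcodes with at least 5 each, and of the 184 of Mut mural cell-like barcodes 146 sat in 6. A set of 5 Mut mural cell-like barcodes with both Xist and a Y-linked UMI, a sign of more than 1 cell in a droplet, held 82 of the 184, while WT had 2 such barcodes with 0. Female and male mural barcodes alone gave Hes5 ratios of 1.08 (0.716 to 1.63) and 1.24 (0.638 to 2.41).

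When barcodes of the non-astroglial classes with 2 or more astrocyte markers were left out, an alternative added after the data had been seen, 2 pairs were over 1.5-fold higher in place of 6. The log2 ratio of Hes5 went from 1.07 to -0.30 in microglia-like, from 1.08 to 0.55 in mural cell-like and from 0.62 to 0.43 in inhibitory neuron-like barcodes. Fibroblast-like Hes1 had 1.57 in place of 0.88 there, and microglia-like Hes1 had 0.61 in place of 0.84. This filter removed 49 of 58 WT and 118 of 160 Mut fibroblast-like barcodes, a class with a summed astrocyte marker level of 1108 and 1442 CPM, of which the marker Gjb6 gave 240 and 227, so that its Hes1 value there rests on few barcodes. Removing the highest Scrublet doublet scores left 3 pairs over 1.5-fold higher, with microglia-like Hes1 at 0.15, Hes5 at 0.28 and mural cell-like Hes5 at 0.49 on the log2 scale.

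**Figure D3:**
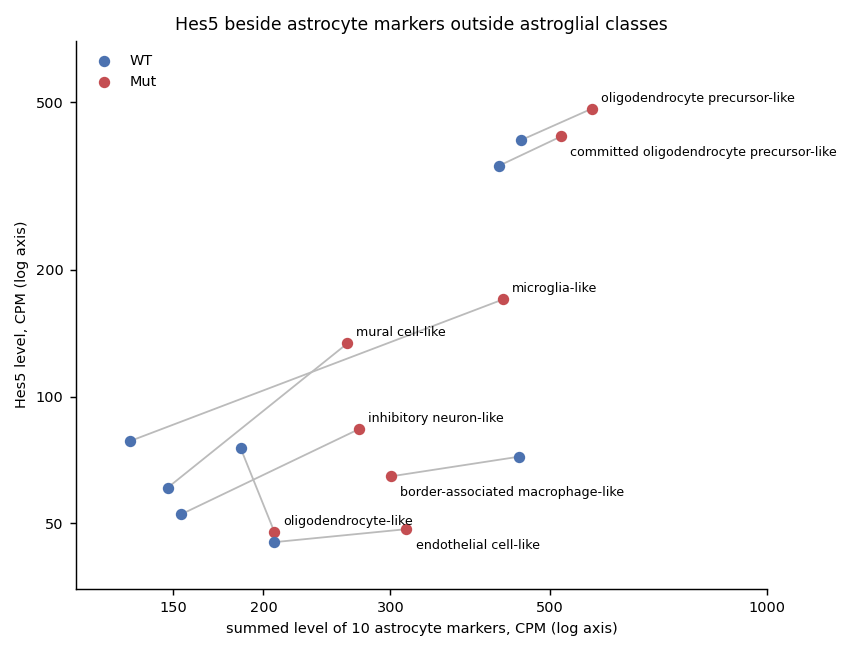
Hes5 level (CPM, log axis) against the summed level of 10 astrocyte markers (CPM, log axis) in 8 non-astroglial classes, with a line joining WT (blue) and Mut (red); fibroblast-like barcodes, at 1108 and 1442 CPM of these markers, are not drawn. In the 3 classes whose Hes5 passed 1.5-fold higher in Mut (microglia-like, mural cell-like, inhibitory neuron-like) the markers were also higher in Mut, for example 430 against 130 CPM in microglia-like barcodes. Among the classes drawn, the markers were lower in Mut only in border-associated macrophage-like barcodes (452 in WT and 301 in Mut).

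**Figure D4:**
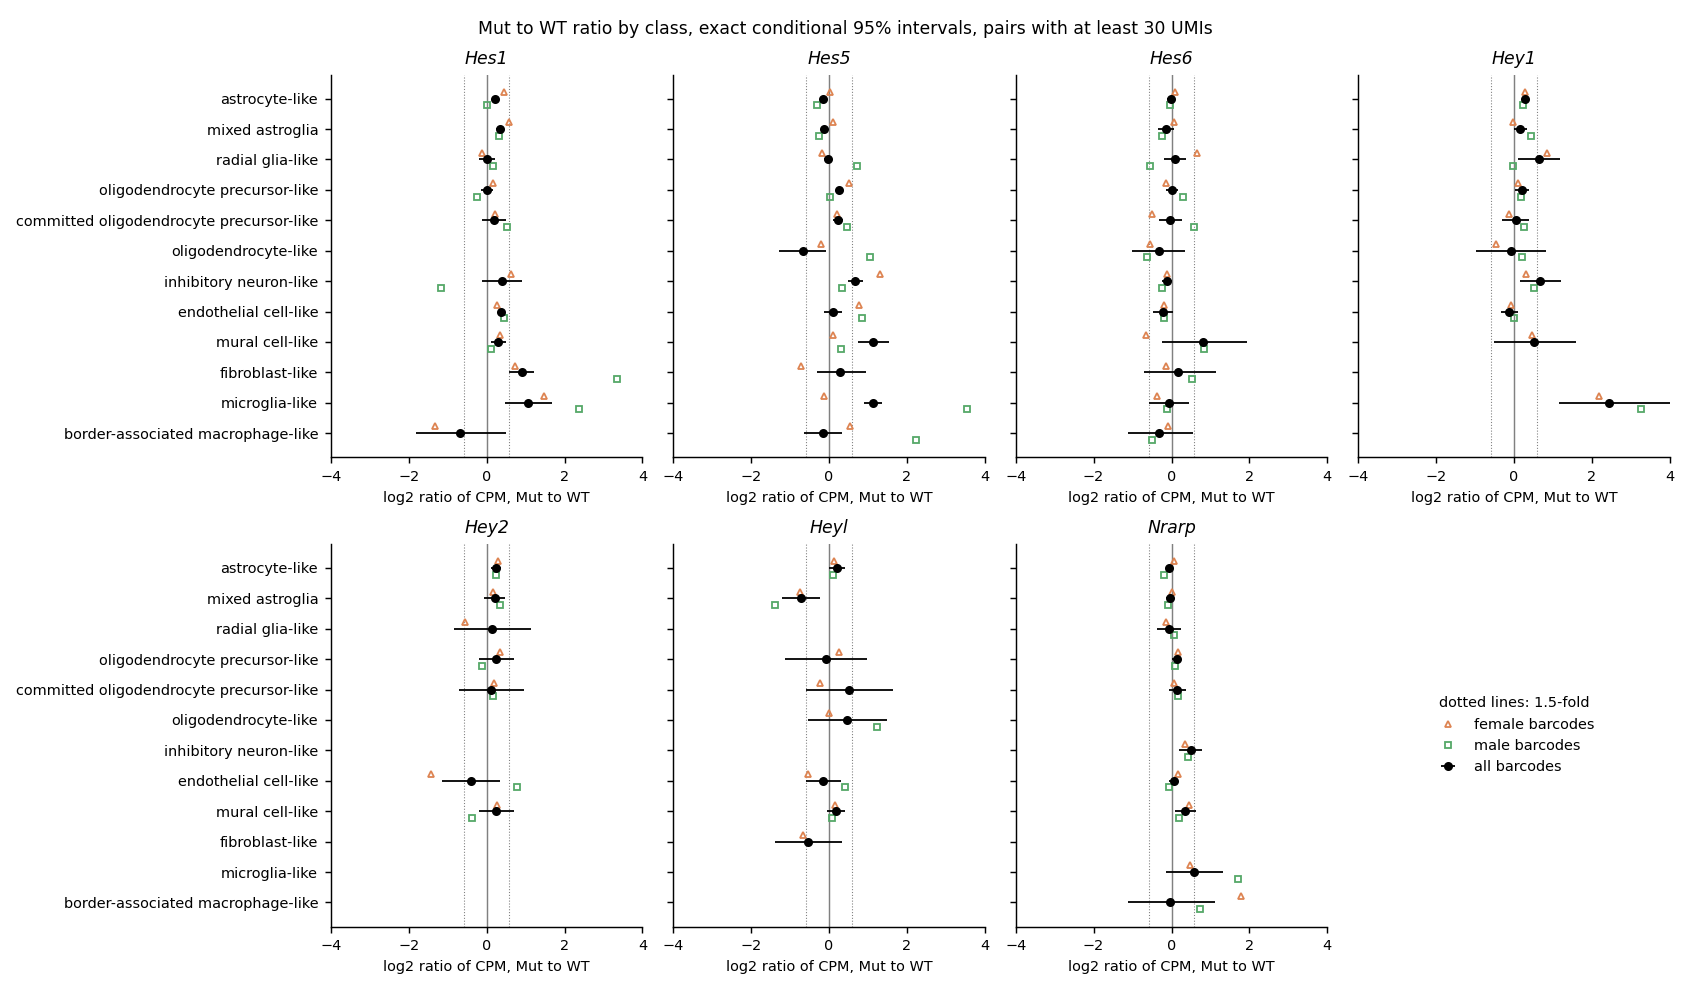
Log2 ratio of CPM, Mut to WT, for each gene and class with at least 30 UMIs, all barcodes in black with exact conditional 95% intervals, female (triangles) and male (squares) barcodes without intervals, where at least 10 UMIs and both libraries gave a value; dotted lines mark 1.5-fold and the axis ends at 4. Endothelial Hes1 lies right of 0 in both sexes (1.21 and 1.37), while microglia-like Hes5 lies at 0.909 in female and 11.7 in male barcodes.

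Other genes of the pathway, with Groucho, proneural, Id and other Hes genes beside it, were counted from lists of fixed membership. The lists held 57 entries in the gene table, with Dll1 under 2 headings. Their headings were receptors, ligands, non-canonical ligands, glycosyltransferases, cleavage enzymes, nuclear complex, inhibitors, Groucho corepressors, proneural genes, Id genes and other Hes genes. Of the 57, 49 had at least 30 UMIs in astrocyte-like barcodes and 0 passed 1.5-fold there, against 0.177% of all genes higher and 0.128% lower. The receptor Notch1 was at 226 and 231 CPM in them. In endothelial cell-like barcodes 1 of 42 was higher by that fold, against 0.528% of all genes, the non-canonical ligand Dner at 1.76 and 5.43 CPM, while the ligands Dll4 (93.4 and 105 CPM) and Jag2 (59.9 and 80.0 CPM) and the receptor Notch4 (49.9 and 60.8 CPM) did not. Microglia-like barcodes had 5 of 35 higher by that fold, among them Id3 at 35.5 and 159 CPM and Dner at 1.38 and 10.2, against 4.64% of all genes. Of these 5, 3 were Id genes, 1 a Groucho corepressor and 1 a non-canonical ligand, with 0 receptors and 0 genes of the nuclear complex. The astrocyte markers stood at 130 and 430 CPM in this class, and their part in these values was not tested. Fibroblast-like barcodes had 5 of 31 higher (10.7% of all genes), mural cell-like ones 3 of 33 (4.82%), and oligodendrocyte-like ones 3 higher and 1 lower of 24 (4.81% and 3.54%). Id genes made up 2 of the higher fibroblast-like, 2 of the higher mural cell-like and 1 of the higher oligodendrocyte-like entries. Border-associated macrophage-like barcodes had 1 higher and 2 lower of 27 (5.46% and 4.27% of all genes), and the 2 lower ones were Id genes. All 4 Id genes lay below a log2 ratio of 0 there (median -0.63), as did 3 of 4 in endothelial cell-like barcodes.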

How the data were processed

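Per the labels' protocols, cortical cells at postnatal day 5 were dissociated, sorted and captured in 10x Genomics droplets. Values are raw UMI counts per gene and barcode as deposited by the authors, with all barcodes kept. Per the file headers, Cell Ranger 4 wrote the matrices. Cell Ranger, STAR and GRCm38 are named, per the submitters' processing notes, while the annotation release and strand setting are not given in the sources used here.

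Barcodes with at least 1000 UMIs, 500 genes and at most 20% mitochondrial UMIs were used. A barcode joined a class when at least 4 of that class's markers had a UMI and the detected fraction of markers led the next class by 0.2. Astroglia were divided by the difference between astrocyte and radial glia fractions at 0.1, and the oligodendrocyte lineage by numbers of stage markers. Barcodes whose best class did not lead by that much stayed unassigned, so that assigned barcodes can hold some markers of another type, and no doublet caller was run except as an alternative (Scrublet in scanpy 1.11.5). Class names are rebuilt from markers. UMIs were summed per class and library, divided by the class total, and compared on the log2(CPM + 5) scale, with over 1.5-fold and at least 30 UMIs over both libraries counted as past the fold. Sex was called from Xist and the Y-linked genes Ddx3y, Eif2s3y, Kdm5d and Uty. Promoters were searched in RefSeq sequences.

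The members and lists were chosen with earlier results of these data known. The markers were fixed in advance of this work, but the scoring rule was settled after class sizes had been seen, and the split by arterial markers and 2 alternatives were added after seeing the data. One gene of the lists, and a split made with it, are not reported here. Named genes are the 7 members, the 3 genes with the most similar pattern to each (at least 100 UMIs in each library, ranked by the lower r of both libraries), and examples from the Notch lists. In all 18 alternatives were tried. The code was checked on simulated data. Tools were numpy 2.4.6, scipy 1.17.1, pandas 2.3.3 and matplotlib 3.10.9.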

Additional observations from a re-analysis of the deposited data

Results flagged for a closer look

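In 4 of the 84 pairs of a gene and a class, the Mut to WT ratio lay on opposite sides of 1 in female and male barcodes, with both counting intervals leaving out 1. The share of all genes that meet this rule was not computed, so that the count does not set the members apart from other genes. The difference between the sexes was not tested, and each sex of each library may stand for very few animals. Hes5 in mixed astroglia had a ratio of 1.08 (1.04 to 1.12) in female and 0.842 (0.806 to 0.88) in male barcodes, from 1569 and 1697 CPM in female and 1906 and 1605 in male ones. Hes5 in radial glia-like barcodes had 0.875 (0.787 to 0.973) in female and 1.66 (1.44 to 1.90) in male barcodes. The 10 astrocyte markers in these barcodes summed to 2908 and 2663 CPM in female and 1803 and 2289 in male ones (WT and Mut), and their part was not tested. Hes6 in the same class had 1.58 (1.13 to 2.23) in female and 0.681 (0.463 to 0.982) in male barcodes, so that the 2 genes went opposite ways in each sex. Only 36 male radial glia-like barcodes were present in Mut, against 86 in WT. Hes6 in committed oligodendrocyte precursor-like barcodes had 0.707 (0.514 to 0.973) in female and 1.5 (1.06 to 2.13) in male barcodes.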

How the results depend on the processing

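The count of 6 pairs over 1.5-fold higher in Mut became 3 with the highest Scrublet scores removed, 2 without barcodes of non-astroglial classes with 2 or more astrocyte markers, and 10 with free RNA subtracted at 5%. The count of 1 lower pair became 2 with 1 more marker required, in female and in male barcodes alone, with a minimum of 10 UMIs, and without those astrocyte-marker barcodes. It became 3 with free RNA subtracted or a pseudocount of 1 CPM, and 0 with a pseudocount of 10 CPM or the mean of levels per barcode. The log2 ratio of oligodendrocyte-like Hes5 turned to 1.43 with barcodes thinned to 1000 UMIs and to 0.81 in male barcodes. That of microglia-like Hes5 turned to -0.13 in female barcodes and to -0.30 without the astrocyte-marker barcodes. The cause of these changes was not tested. The highest class changed under some alternatives for Hes6 and Hey1 and under none for the other 5 genes. No paired analysis was possible because each genotype has 1 library. That single library, the uneven sex of the cells, and the few barcodes of the oligodendrocyte-like and fibroblast-like classes limit every Mut to WT ratio.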
